A study of Mus musculus with 14 samples.

Results

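The genes described here encode subunits of the NMDA receptor: Grin1, Grin2a, Grin2b, Grin2c, Grin2d and Grin3a. They were taken by gene symbol, by a rule that uses no measured value but was set with earlier results of these data known, and make up 6 of the 22485 genes in the deposited gene table. All 6 passed the filter on low counts, which kept 13063 genes. A related subunit gene, Grin3b, was added for completeness and is described once below.

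RNA was sequenced from mouse hippocampal tissue of the C57BL/6 strain in 14 libraries, 7 dissociated and 7 control. In the dissociated group, tissue spent 75 min in artificial cerebrospinal fluid containing 1 mg/ml pronase, a protease mixture, and was afterwards broken up by vortexing, spinning and trituration with 1% fetal bovine serum present. In the control group, tissue was homogenised without that step, and RNA of both groups was isolated with the same kit. CA1 had 3 dissociated and 3 control libraries, CA3 had 2 dissociated and 2 control libraries, and the dentate gyrus (DG) had 2 dissociated and 2 control libraries. The deposited sample sheet names 1 mouse, 1 sequencing job and 1 date for all of them, so the p-values cover the spread between pieces of tissue that share an animal and may be partly technical. The study asked what enzymatic dissociation does to measured expression in these subregions.

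NMDA receptors are glutamate-gated cation channels that need a coagonist, glycine or D-serine, and that pass calcium when depolarisation removes a magnesium block. Every receptor contains GluN1, the product of Grin1, joined by GluN2 subunits (Grin2a to Grin2d), which bind glutamate and set the kinetics, or by GluN3 subunits. In the adult hippocampus GluN2A and GluN2B predominate in principal neurons, and their calcium signal drives synaptic plasticity.

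Total estimated counts ranged from 65887 to 4782767 in dissociated libraries and from 1285654 to 6646655 in control libraries. The libraries CA1 dissociated replicates 2 and 3 and DG dissociated replicate 3 each held fewer than 500000 counts. The summed level of 7 CA1 marker genes, in CPM (counts scaled to library size), checked the labels. It was below that of 7 CA3 markers in CA1 dissociated replicate 3 (152 against 1310 CPM), and above it in CA3 dissociated replicate 1 (1661 against 831 CPM) and CA3 control replicate 1 (2127 against 543 CPM). Thus 3 of the 10 libraries labelled CA1 or CA3 went against their label, and the main results are also given without them. Of the 4 DG libraries, 2 had more summed CA3 than DG markers, namely DG dissociated replicate 3 (624 against 515 CPM) and DG control replicate 2 (734 against 595 CPM). Between the groups, 10 oligodendrocyte markers summed to 1359 to 12327 CPM in dissociated libraries and 597 to 3768 CPM in control libraries, and 10 microglial markers summed to 605 to 2202 CPM in dissociated libraries and 278 to 511 CPM in control libraries. Opalin was at 0 in DG dissociated replicate 4, Aif1 in CA1 dissociated replicate 3 and DG dissociated replicate 3, and Tmem119 in DG dissociated replicate 3, and no other marker of these 2 lists was at 0 in a library. The sum of 10 excitatory neuron markers overlapped between groups, at 5057 to 14740 CPM in dissociated and 9501 to 11895 CPM in control libraries.

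All the member genes lie on the minus strand in GENCODE M21 (GRCm38): Grin1 on chr2:25291181-25319187, Grin2a on chr16:9567898-9995560, Grin2b on chr6:135713233-136173511, Grin2c on chr11:115249169-115267243, Grin2d on chr7:45831883-45878378 and Grin3a on chr4:49661611-49845744. Grin1 has 8 deposited transcripts that combine 3 splice choices. The N1 cassette near the amino terminus changes proton sensitivity and deactivation, the C1 cassette in the cytoplasmic tail carries a signal that holds the protein in the endoplasmic reticulum, and the alternative ends C2 and C2' decide how readily it leaves. These splice choices are shown from the GENCODE M21 transcripts, 5′ to 3′ on the transcript strand. The alternative coding stretch is in capitals and up to 20 bases of its neighbours are in lower case. The bases of the C2' stretch also lie in the last exon of the C2 forms, after their stop codon. Only the junction in front of it is therefore particular to the C2' forms. The forms also differ in the bases before the coding sequence, which number 209, 234 or 301. The cassette coordinates are chr2:25311343-25311405 for N1, chr2:25294438-25294548 for C1, chr2:25292368-25292484 for the coding part of the C2 end and chr2:25292060-25292128 for that of the C2' end.
Grin1 N1 included: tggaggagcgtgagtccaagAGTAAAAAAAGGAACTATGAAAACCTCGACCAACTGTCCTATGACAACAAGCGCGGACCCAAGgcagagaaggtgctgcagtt
Grin1 N1 skipped: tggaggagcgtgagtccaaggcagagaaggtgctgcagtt
Grin1 C1 included: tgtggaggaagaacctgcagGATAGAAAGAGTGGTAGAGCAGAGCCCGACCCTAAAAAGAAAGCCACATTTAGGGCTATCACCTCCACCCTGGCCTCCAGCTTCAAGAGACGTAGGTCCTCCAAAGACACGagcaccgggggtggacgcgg
Grin1 C2 end: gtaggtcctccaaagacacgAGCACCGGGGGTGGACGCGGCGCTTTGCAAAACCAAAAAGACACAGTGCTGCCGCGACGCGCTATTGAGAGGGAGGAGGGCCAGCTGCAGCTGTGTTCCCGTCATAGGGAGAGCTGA
Grin1 C2' end: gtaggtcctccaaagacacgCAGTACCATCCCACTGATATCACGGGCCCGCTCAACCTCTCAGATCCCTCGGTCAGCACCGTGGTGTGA
The 63 bases of N1 and the 111 bases of C1 are whole exons and leave the reading frame intact, while the 2 ends supply different final residues and stop codons.

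Levels of the genes were first compared per length, in TPM (transcript abundance corrected for length and depth) summed over the forms of a gene. Grin1 was the most abundant member in each of the 14 libraries, at 288 ± 77.1 TPM in dissociated libraries and 482 ± 135 TPM in control libraries (SD, n = 7 each). Grin2b had 60.4 ± 37.2 TPM in dissociated libraries and 134 ± 97.2 TPM in control libraries. Short forms weigh on these values. DG dissociated replicates 3 and 4 had 128 and 94.9 TPM of Grin2b, against 20.3 and 53.3 TPM for its main form alone. Control libraries were raised too, as in CA1 control replicate 3, with 252 against 202 TPM. Grin2a had 39.0 ± 17.5 TPM in dissociated libraries and 126 ± 81.4 TPM in control libraries. The ranges of Grin2b and Grin2a overlapped in both groups. Within libraries, Grin2b was the higher in 5 of 7 dissociated and 5 of 7 control libraries. The control ratio of Grin2a to Grin2b was 0.832 to 0.946 in CA1, 0.970 and 0.988 in CA3, and 1.36 and 1.29 in DG. For the main forms alone it was 0.919 to 1.10 in CA1, 1.00 and 1.15 in CA3, and 1.41 and 1.32 in DG. Grin2a was thus the higher in both DG control libraries on either measure, while the order in CA1 control depended on the forms counted. Grin2c encodes a subunit best known from cerebellar granule cells, and its level was 41.3 ± 16.6 TPM in dissociated libraries and 28.1 ± 7.40 TPM in control libraries. It exceeded that of Grin2a in 4 of 7 dissociated libraries and in 0 of 7 control libraries. Grin2d, in the adult brain a subunit mainly of interneurons and brainstem cells, had 5.17 ± 5.78 TPM in dissociated and 8.29 ± 2.68 TPM in control libraries. Grin3a, whose subunit lowers calcium permeability and is most abundant early in postnatal life, had 5.22 ± 2.35 TPM in dissociated and 6.96 ± 5.22 TPM in control libraries. The ranges of Grin2d and Grin3a overlapped in both groups. Grin3b, which encodes the other GluN3 subunit, had 0 to 5 counts in 13 libraries and 39 counts in DG control replicate 3, and no further result on it is given.

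As shares of the summed TPM of the 6 genes, Grin2a and Grin2b took a smaller part of the total in dissociated than in control CA1. Grin2b made up 7.69 to 10.3% in the 3 CA1 dissociated and 19.0 to 22.9% in the 3 CA1 control libraries. Grin2a made up 5.83 to 11.1% in CA1 dissociated and 16.8 to 21.7% in CA1 control libraries. Grin1 made up 67.8 to 75.7% in CA1 dissociated and 51.3 to 59.9% in CA1 control libraries, while Grin2c made up 5.76 to 13.5% in CA1 dissociated and 2.21 to 3.10% in CA1 control libraries. Without CA1 dissociated replicate 3, which went against its label, the other 2 CA1 dissociated libraries had 7.69 and 9.27% for Grin2b and 9.72 and 11.1% for Grin2a. The groups did not overlap for any of these shares, which sum to a whole and so do not vary independently. The summed TPM of the 6 genes was 455 ± 40.9 in CA1 dissociated and 1070 ± 145 in CA1 control libraries (SD, n = 3 each). The main form of Grin2b alone had 214, 134 and 202 TPM in CA1 control replicates 1, 2 and 3. The gene's values there were 248, 174 and 252 TPM. In CA1 dissociated libraries, in the same order, the main form had 43.6, 36.8 and 42.1 TPM, against 44.4, 36.8 and 42.1 TPM for the gene. Short forms therefore added to the Grin2b share mainly on the control side in CA1. In DG dissociated libraries the TPM of Grin2b also rested partly on short transcripts. Of the 25 counts of DG dissociated replicate 3, 2.52 were assigned to a form of 703 bases, and the gene's TPM there was 128, against 20.3 for its main form alone. Depth is therefore too low in that library to read its composition.

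**Figure D1:**
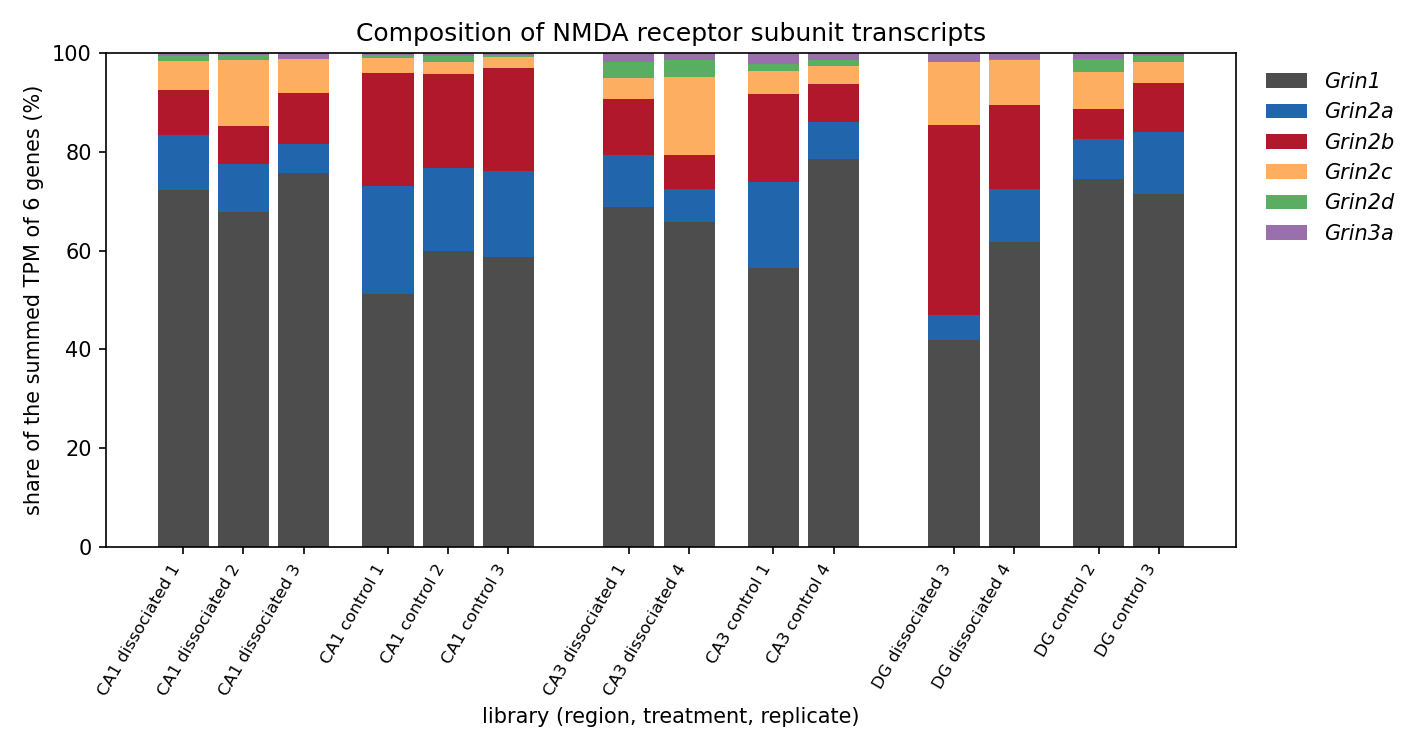
Share of the summed TPM of the 6 genes (y axis, percent) taken by each gene in each library (x axis, by region, treatment and replicate). In CA1, Grin2a and Grin2b together are a smaller part of each dissociated bar than of each control bar, and the large Grin2b part of DG dissociated replicate 3 rests on 25 counts.

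Dissociated and control tissue were then compared over all regions with edgeR's quasi-likelihood test, fitted with region and treatment as additive terms, and called at a Benjamini-Hochberg adjusted p under 0.05. None of the 6 genes was called, while 0.773% of the 13063 genes tested were (95 higher and 6 lower in dissociated tissue). Unadjusted, 3 of the 6 had a p under 0.05, as did 12.4% of all genes. DESeq2 called 1 member beside 3.66% of the genes it tested. Limma with quality weights called 1 beside 3.22%, and limma on log2(TPM + 1) called 0 beside 0.421%. The members' median log2 fold change was -0.37, beside -0.11 over all genes. In these bulk samples, fewer cells of a type and less RNA per cell cannot be told apart.

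**Figure D2:**
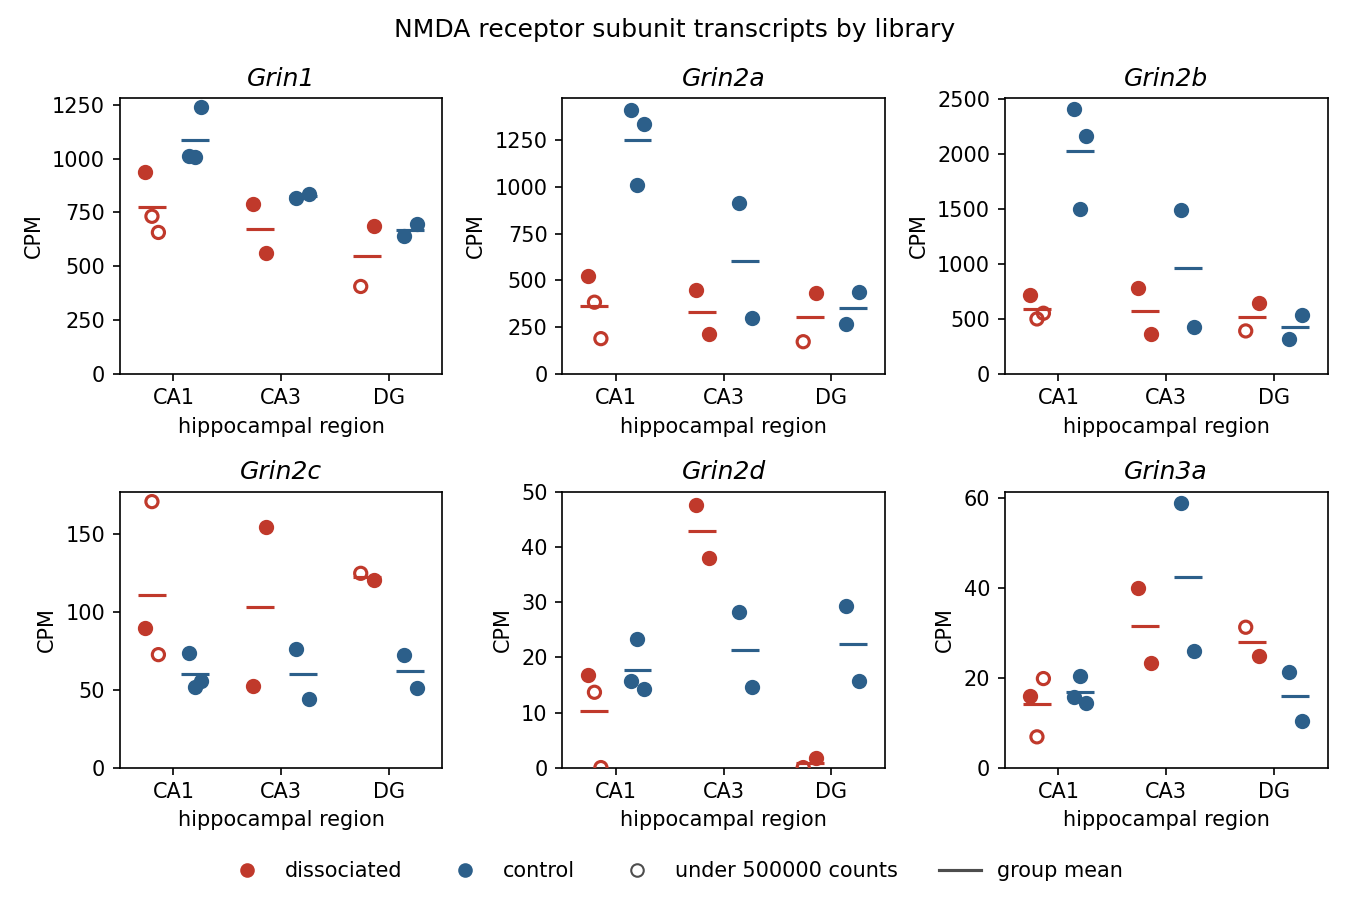
CPM of each gene (y axis, linear from 0) by hippocampal region (x axis). Each point is 1 library, dissociated left of control, hollow where the library held under 500000 counts, and lines are group means. Grin2a and Grin2b show the widest gap in CA1, where every dissociated library lies below every control library, as for 16.0% of all genes tested.

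Grin1, the subunit present in every receptor, did not pass the test. In CA1 it had 938, 732 and 657 CPM in dissociated replicates 1, 2 and 3, against 1012, 1006 and 1239 CPM in control replicates 1, 2 and 3. In CA3 it had 787 and 560 CPM in dissociated replicates 1 and 4, against 818 and 834 CPM in control replicates 1 and 4. The groups did not overlap in CA1 and CA3, where 16.0% and 18.2% of all genes tested lay wholly lower in dissociated libraries. In DG it had 406 and 684 CPM in dissociated replicates 3 and 4, against 642 and 698 CPM in control replicates 2 and 3, and these overlapped. Over all regions the log2 fold change was -0.36 (SE 0.18, edgeR adjusted p = 0.404).

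Grin2a encodes the subunit that gives mature synaptic receptors their fast deactivation. In CA1 it had 522, 383 and 188 CPM in dissociated replicates 1, 2 and 3, against 1412, 1009 and 1334 CPM in control replicates 1, 2 and 3. Every dissociated CA1 library lay below every control one, as for 16.0% of all genes tested, with a ratio of means of 0.291. In CA3 it had 447 and 212 CPM in dissociated replicates 1 and 4, against 911 and 298 CPM in control replicates 1 and 4, with overlap. In DG it had 172 and 433 CPM in dissociated replicates 3 and 4, against 266 and 437 CPM in control replicates 2 and 3, again with overlap. The log2 fold change over all regions was -1.05 (SE 0.32, edgeR adjusted p = 0.141). It was below 0 in all 22 alternatives run and called in 4 of them, with adjusted p between 0.000118 and 0.552. One of the 4 left out DG dissociated replicate 4, which moved the value to -1.35 (edgeR adjusted p = 0.0174).

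Grin2b encodes the subunit with slow deactivation that dominates early in development and binds CaMKII, the plasticity kinase. In CA1 it had 720, 499 and 551 CPM in dissociated replicates 1, 2 and 3, against 2404, 1502 and 2165 CPM in control replicates 1, 2 and 3. The dissociated group lay wholly lower, as for 16.0% of all genes tested, with a ratio of means of 0.292. No member lay wholly higher in CA1 dissociated libraries, as 7.16% of all genes did. In CA3 it had 782 and 364 CPM in dissociated replicates 1 and 4, against 1488 and 428 CPM in control replicates 1 and 4, with overlap. In DG the dissociated values, 390 and 645 CPM in replicates 3 and 4, overlapped the control values of 313 and 538 CPM in replicates 2 and 3. Over all regions the log2 fold change was -0.89 (SE 0.32, edgeR adjusted p = 0.244), below 0 in all 22 alternatives and called in 2. Without the 3 libraries that went against their label the values over all regions were -0.64 for Grin2b (edgeR adjusted p = 0.488) and -0.76 for Grin2a (adjusted p = 0.327).

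Within CA1 alone, in the model with 1 mean per group, the log2 fold change was -1.76 for Grin2a (SE 0.45, edgeR adjusted p = 0.136) and -1.77 for Grin2b (SE 0.41, adjusted p = 0.103). Neither was called in this fit, which called 0.191% of genes, all higher in dissociated tissue. Of the 6 members, 2 had an unadjusted p under 0.05, as did 11.2% of all genes. Both were called by DESeq2 (adjusted p = 0.0261 for Grin2a and 0.0127 for Grin2b), which called 1.75% of the genes it tested. EdgeR with no filter on low counts also called both, beside 1.56% of genes. Of the CA1 dissociated libraries, 2 held under 500000 counts. Without the 3 such libraries of the series, which leaves 1 dissociated CA1 library whose spread is taken from the other groups, the values were -1.23 for Grin2a (edgeR adjusted p = 0.676) and -1.45 for Grin2b (adjusted p = 0.641), with 1 member at an unadjusted p under 0.05. Without the 3 libraries whose markers went against their label, the values were -1.43 for Grin2a (edgeR adjusted p = 0.210) and -1.70 for Grin2b (adjusted p = 0.121). Leaving out CA3 control replicate 1 or CA3 control replicate 4, which enter through the shared spread, made Grin2b a call by edgeR, at adjusted p = 0.0436 and 0.0476.

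Other markers moved in the same CA1 libraries. The 10 oligodendrocyte markers summed to 1359, 3310 and 5851 CPM in CA1 dissociated replicates 1, 2 and 3, against 597 to 782 CPM in CA1 control libraries. The 10 microglial markers summed to 1366 to 2202 CPM in CA1 dissociated libraries, against 278 to 511 CPM in CA1 control libraries. The 7 CA1 markers summed to 2372, 1600 and 152 CPM in CA1 dissociated replicates 1, 2 and 3, against 2277 to 2818 CPM in CA1 control libraries. The sums of the 10 excitatory neuron markers overlapped, at 8350 to 13586 CPM in CA1 dissociated and 10812 to 11067 CPM in CA1 control libraries. Gene by gene, their median log2 fold change in CA1 was -0.27, with 6 below 0 and 4 above. The part of glial and subregion content in the Grin2a and Grin2b values was not tested.

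In CA3, 0 of 6 members were called by edgeR or DESeq2, as was 0% of all genes. By edgeR, 0 members had an unadjusted p under 0.05, against 4.0% of all genes. The CA3 log2 fold changes of Grin2a and Grin2b were -0.87 (SE 0.53, edgeR adjusted p = 1) and -0.74 (SE 0.49, adjusted p = 1). Both turned positive, at 0.19 and 0.46, without CA3 control replicate 1, a library that went against its label. Without all 3 libraries that went against their label, which leaves 1 dissociated and 1 control library of CA3, the CA3 values were -0.56 for Grin1, -0.47 for Grin2a, -0.22 for Grin2b, 1.82 for Grin2c, 1.40 for Grin2d and -0.13 for Grin3a. None of these was called by edgeR, the lowest adjusted p being 0.374 for Grin2c. In DG, 0 of 6 members were called, against 0.161% of all genes. Unadjusted, 1 member, Grin2d, had a p under 0.05, as did 14.1% of all genes. DESeq2 called 0 members in DG, beside 0.852% of the genes it tested. The DG values were -0.11 for Grin2a (SE 0.55, edgeR adjusted p = 0.954) and 0.32 for Grin2b (SE 0.50, adjusted p = 0.805). Whether the treatment difference itself varied with region was tested by an interaction term. The interaction p was 0.0146 for Grin2b (edgeR adjusted p = 0.493) and 0.0821 for Grin2a (adjusted p = 0.634). No gene of the 13063 was called for interaction by edgeR (0%), with 1112 genes at an unadjusted p under 0.05, and DESeq2 called 28.

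**Figure D3:**
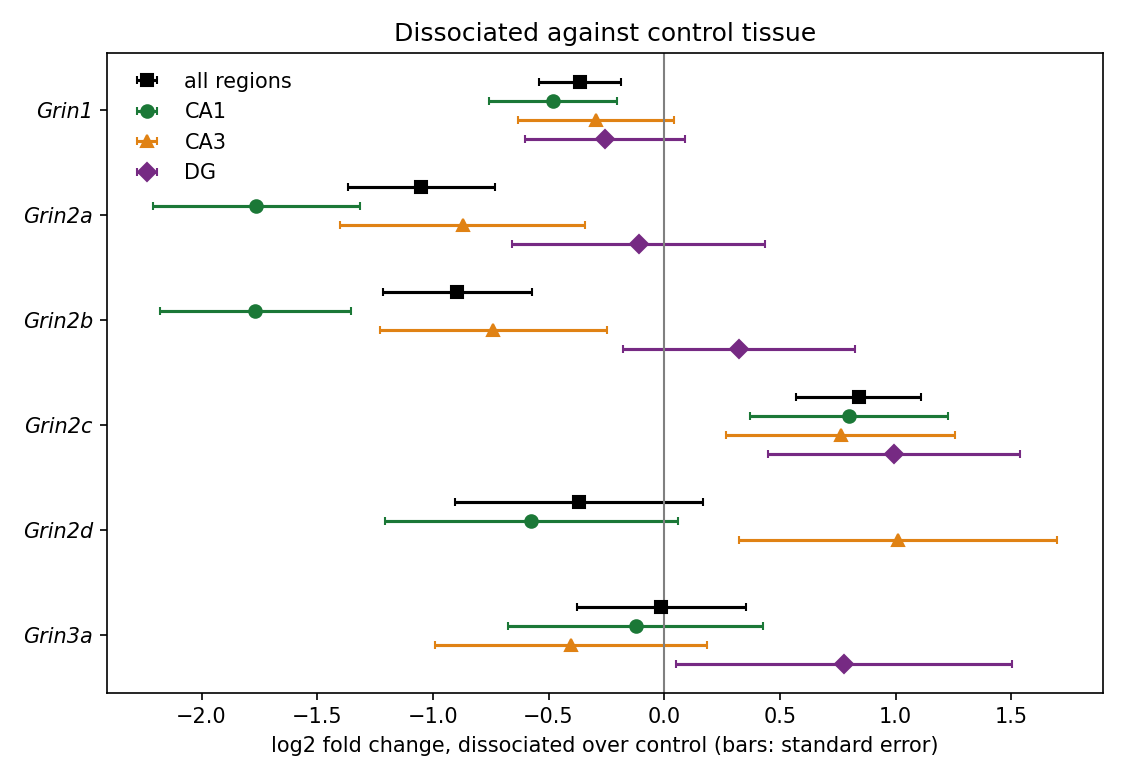
Log2 fold change of dissociated over control (x axis) for each gene (y axis), over all regions and within CA1, CA3 and DG, with bars of 1 standard error. Grin2a and Grin2b are farthest below 0 in CA1, and Grin2c is above 0 in each region. The DG value of Grin2d is not drawn because the dissociated DG libraries held 1 count of it.

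Grin2c was the member with a positive difference in every region. In CA1 it had 89.5, 171 and 72.6 CPM in dissociated replicates 1, 2 and 3, against 73.8, 51.7 and 56.0 CPM in control replicates 1, 2 and 3. In CA3 it had 52.2 and 154 CPM in dissociated replicates 1 and 4, against 76.2 and 44.2 CPM in control replicates 1 and 4. In DG it had 125 and 121 CPM in dissociated replicates 3 and 4, against 72.6 and 51.1 CPM in control replicates 2 and 3. The groups overlapped in CA1 and CA3 and were apart in DG, where 8.25% of all genes lay wholly higher in dissociated libraries. The log2 fold change over all regions was 0.84 (SE 0.27, edgeR adjusted p = 0.175), above 0 in all 22 alternatives, and DESeq2 alone called it (adjusted p = 0.0293). Grin2c has also been described in astrocytes. The 8 astrocyte markers summed to 785 to 2910 CPM in dissociated and 847 to 1661 CPM in control libraries, and their part in the Grin2c values was not tested.

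Grin2d was near the limit of detection in part of the libraries. In DG the dissociated replicates 3 and 4 held 0 and 1 counts, against 40 and 98 counts in control replicates 2 and 3. The ratio of pooled CPM was 0.0824, with a 95% exact Poisson interval of 0.00209 to 0.459 that covers the counting error of the dissociated count only. A count of 0 allows up to 3 counts, or 46.8 CPM in DG dissociated replicate 3, which is above both control values of 29.3 and 15.7 CPM, so that library cannot show a decrease. In DG dissociated replicate 4, 3 counts would be 4.96 CPM. In DG, 32.2% of all genes lay wholly lower in dissociated libraries. The 10 interneuron markers summed to 406 and 258 CPM in DG dissociated replicates 3 and 4, against 1276 and 370 CPM in DG control replicates 2 and 3. In DG dissociated replicates 3 and 4, 3 and 6 of these markers were at 0, against 1 in each DG control library. Their median log2 fold change in DG was -2.70, with 0 called by edgeR. Unadjusted, 5 of these markers had a p under 0.05, as did 14.1% of all genes. The part of interneuron content in the Grin2d values was not tested. In CA3 Grin2d was higher in dissociated tissue, at 47.7 and 38.1 CPM in replicates 1 and 4, against 28.2 and 14.6 CPM in control replicates 1 and 4. These did not overlap, as for 15.7% of all genes in that direction. In CA1 the dissociated libraries had 74, 2 and 0 counts, and the groups overlapped in CPM. The interaction p for Grin2d was 0.0142 (edgeR adjusted p = 0.489), and the log2 fold change over all regions was -0.37 (SE 0.54, adjusted p = 0.823), with the other sign in 4 of 22 alternatives.

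Grin3a had no difference with treatment beyond its error. In CA1 it had 16.0, 6.84 and 19.8 CPM in dissociated replicates 1, 2 and 3, against 15.7, 20.3 and 14.3 CPM in control replicates 1, 2 and 3. In CA3 it had 39.9 and 23.2 CPM in dissociated replicates 1 and 4, against 58.8 and 25.8 CPM in control replicates 1 and 4. In DG the dissociated libraries, at 31.2 and 24.8 CPM from 2 and 15 counts, lay above the control libraries at 21.3 and 10.4 CPM. Of all genes tested, 8.25% lay wholly higher in DG dissociated libraries. In DG dissociated replicate 3, 3 counts would be 46.8 CPM, so its 2 counts fix the level only loosely. Over all regions the log2 fold change was -0.01 (SE 0.37, edgeR adjusted p = 0.994), and its sign changed with the scaling.

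The same fit compared the regions. CA1 exceeded DG for the 3 abundant members, with log2 fold changes of 1.20 for Grin2b (SE 0.40, edgeR adjusted p = 0.108), 1.03 for Grin2a (SE 0.40, adjusted p = 0.178) and 0.59 for Grin1 (SE 0.22, adjusted p = 0.153). None of the 6 was called, where 4.06% of all genes were. Unadjusted, 3 had a p under 0.05, as did 15.7% of all genes. DESeq2 called 1 member beside 8.59% of the genes it tested, and limma with quality weights called 3 beside 9.63%. On log2(TPM + 1), limma gave a difference of 0.59 for Grin2b (adjusted p = 0.693). The TPM of Grin2b in DG dissociated libraries rests partly on short forms. Among control libraries alone the differences were larger, at 2.33 for Grin2b (edgeR adjusted p = 0.0200) and 1.91 for Grin2a (adjusted p = 0.0289), and both were called, as were 6.22% of the genes tested there. Without the 3 libraries that went against their CA1 or CA3 label, the DG libraries with more CA3 than DG markers remained. Both genes were called in that setting as well, at 1.48 for Grin2b (edgeR adjusted p = 0.0210) and 1.37 for Grin2a (adjusted p = 0.0130), where 4.51% of genes were called. Without DG control replicate 2, one of the libraries with more CA3 than DG markers, they were 0.94 for Grin2b (edgeR adjusted p = 0.213) and 0.84 for Grin2a (adjusted p = 0.288), not called. Leaving out DG dissociated replicate 4 alone also made both calls, at 1.71 for Grin2b (adjusted p = 0.0209) and 1.61 for Grin2a (adjusted p = 0.0277) by edgeR.

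In control libraries the order of mean levels was CA1, CA3 and DG for Grin1, Grin2a and Grin2b. Grin2b averaged 2024 ± 467 CPM in CA1 (SD, n = 3), 958 ± 749 CPM in CA3 and 425 ± 159 CPM in DG (n = 2 each). Grin2a averaged 1252 ± 214 CPM in CA1, 604 ± 434 CPM in CA3 and 351 ± 121 CPM in DG. For both genes the CA1 control values lay above those of CA3 and DG, as for 6.38% of all genes tested, while CA3 and DG overlapped. For Grin2b the margin was narrow, at 1502 CPM for the lowest CA1 value and 1488 CPM for the highest of CA3. The high CA3 value of both came from CA3 control replicate 1, with 1488 CPM of Grin2b and 911 CPM of Grin2a, whose CA1 markers exceeded its CA3 markers. CA3 against DG gave 0 called members by edgeR, where 1.77% of all genes were called, with 0 members at an unadjusted p under 0.05 and 0 called by DESeq2. The values there were 0.56 for Grin2b (SE 0.42, edgeR adjusted p = 0.671) and 0.37 for Grin2a (SE 0.41, adjusted p = 0.797). Without the 3 libraries that went against their label they turned to -0.26 and -0.39, not called.

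CA1 against CA3 separated the members by sign. Grin3a was lower in CA1, with a log2 fold change of -1.19 (SE 0.40, unadjusted p = 0.00764, edgeR adjusted p = 0.534), and Grin2d likewise, at -1.17 (SE 0.58, adjusted p = 0.942). Grin2a was higher at 0.66 (SE 0.38, edgeR adjusted p = 1) and Grin2b at 0.63 (SE 0.38, adjusted p = 1). No member was called, where 0.115% of all genes were, and DESeq2 called 0 members beside 0.647% of the genes it tested. Without the 3 libraries that went against their label, Grin2a was called at 1.76 (edgeR adjusted p = 0.0433) beside 0.811% of genes, Grin2b reached 1.75 (adjusted p = 0.0949), and Grin3a shrank to -0.55 (adjusted p = 0.897). Whether Grin2a was called thus depended on those libraries.

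The splice forms of Grin1 were described as shares of its estimated counts. The form with C1 and the C2 end but without N1 held 43.6% of all Grin1 counts over the 14 libraries and the form without either cassette and with the C2 end 27.5%. Grin1-001, with neither cassette and the C2' end, held 14.3% in dissociated and 13.9% in control libraries, and Grin1-005, with C1 and the C2' end, 8.32% of all. The 4 forms that contain N1, Grin1-006, Grin1-007, Grin1-008 and Grin1-010, held at most 2.68% each and 6.58% together. Because the assignment of reads to forms is an estimate, the intervals below cover counting error only.

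The N1 share differed most between CA3 and CA1. It was 15.8% (95% Wilson interval 14.3 to 17.5%) and 27.3% (23.9 to 31.0%) in CA3 dissociated replicates 1 and 4, and 9.19% (7.90 to 10.7%) and 10.2% (8.91 to 11.6%) in CA3 control replicates 1 and 4. It was 0.978% (0.719 to 1.33%) in CA1 dissociated replicate 1, 0% in dissociated replicates 2 and 3, and 4.20, 5.52 and 5.64% in CA1 control replicates 1, 2 and 3. A count of 0 allows up to 2.80% in CA1 dissociated replicate 2 and 1.51% in replicate 3. Every CA3 library lay above every CA1 library of its treatment, by 12.9 percentage points on average. The two-sided exact permutation test within treatments gave p = 0.0100, the smallest that 100 assignments allow, and p = 0.120 after adjustment over the 12 comparisons of the 3 splice choices. This test was chosen after the shares had been seen. Without the 3 libraries that went against their label the difference was 15.9 percentage points. That left 1 CA3 library per treatment, too few for the exact permutation test to reach a p under 0.05. Across all genes, edgeR's test of transcript shares between CA1 and CA3 did not call Grin1 (adjusted p = 1).

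In DG the N1 share was 0% in both dissociated replicates, where a count of 0 allows up to 11.5% in replicate 3 and 0.725% in replicate 4. It was 20.6% in DG control replicate 2 and 4.10% in DG control replicate 3, which is a wide spread for 2 libraries of a group. Dissociated minus control within regions averaged -1.75 percentage points (exact permutation p = 0.625, adjusted p = 0.750). The signs differed between regions, since the share was higher in dissociated CA3 and lower in dissociated CA1 and DG, and that difference was not tested.

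**Figure D4:**
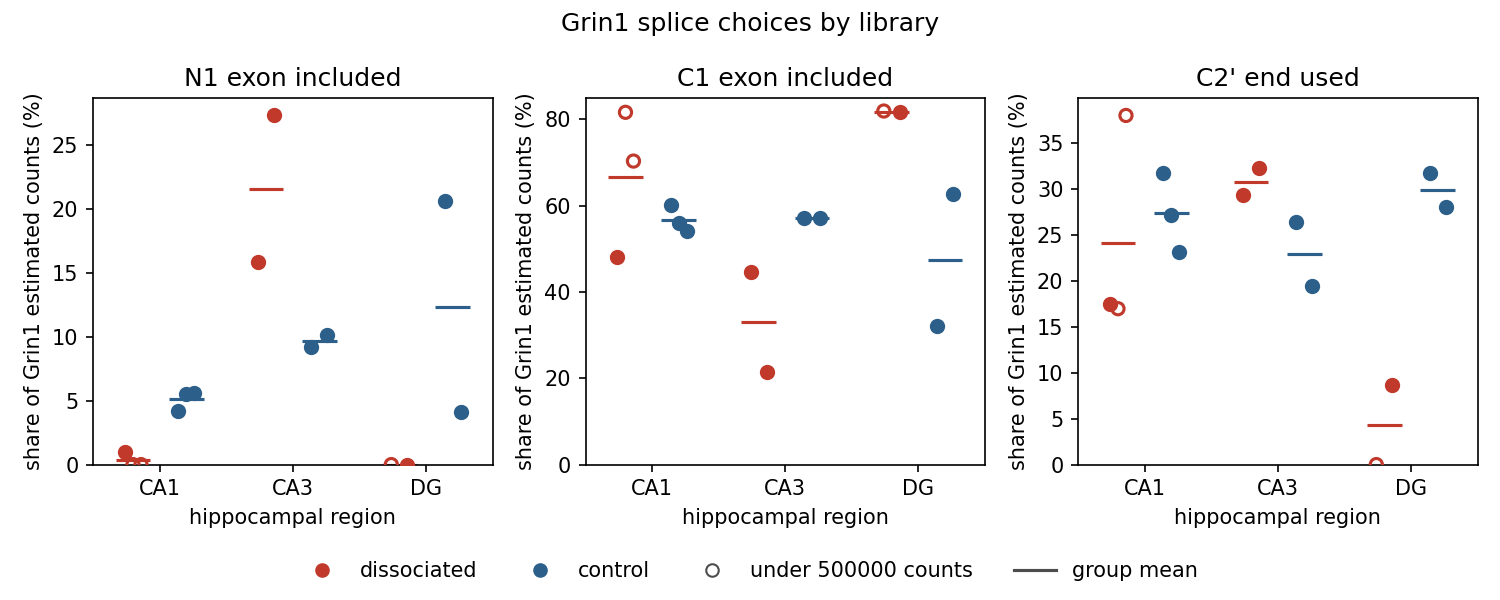
Share of Grin1 estimated counts (y axis, percent) from forms with the N1 exon, with the C1 exon and with the C2' end, by hippocampal region (x axis). Each point is 1 library, dissociated left of control, hollow where the library held under 500000 counts, and lines are group means. The N1 share of each CA3 library exceeds that of each CA1 library of the same treatment.

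The C1 share was 61.4 ± 23.7% in dissociated and 54.2 ± 10.1% in control libraries (SD, n = 7 each), a difference within regions of 6.79 percentage points (exact permutation p = 0.539, adjusted p = 0.719). Pooled over counts, which weights deep libraries more, it was 48.1% in dissociated and 56.8% in control libraries, the opposite order. In DG it was 81.9 and 81.6% in dissociated replicates 3 and 4, against 32.1 and 62.7% in control replicates 2 and 3. The C2' share was 20.4 ± 13.5% in dissociated and 26.8 ± 4.45% in control libraries, a difference of -6.96 percentage points (exact permutation p = 0.250, adjusted p = 0.520). The spread of both shares was wider in dissociated libraries, where 3 libraries had 26 to 199 Grin1 counts in total.

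Among the other members, Grin2a and Grin2b were nearly all 1 form. Grin2a came to 98.1% from a transcript of 14634 bases and Grin2b to 99.5% from one of 24060 bases, in both of which the greater part lies after the coding sequence. Grin3a counts were split between forms of 7491 and 7431 bases, which differ by 60 coding bases, at 35.9 and 64.1% of its counts. All but 1 library had nearly all counts on one form, and CA3 control replicate 1 had 35.6% on the longer. Grin2c counts were split between Grin2c-201, with 80.8%, and Grin2c-001, with 19.2%, which share their coding length. The Grin2c-001 share was 0 to 8.45% in CA1 dissociated and 0 to 12.3% in CA1 control libraries. In CA3 it was 88.0 and 44.8% in dissociated replicates 1 and 4, against 46.5 and 35.2% in control replicates 1 and 4. In DG it was 100% of 8 counts and 0% in dissociated replicates 3 and 4, against 53.7 and 2.01% in control replicates 2 and 3. The test of Grin2c transcript shares gave an unadjusted p of 0.0202 between CA1 and CA3 (edgeR adjusted p = 0.728) and 0.0471 between CA1 and DG (adjusted p = 0.862). Grin2d counts came to 82.6% from Grin2d-001 and to 17.0% from Grin2d-003, whose share varied between 0 and 100% on at most 158 counts a library. The fit over 25388 transcripts called 0 of the 19 member transcripts for treatment, where 0.00394% of all transcripts were called. Unadjusted, 10.6% of all transcripts and 3 of the 19 had a p under 0.05. Those 3 were both Grin2a forms tested and the main form of Grin2b. Between regions this fit also called 0 of the 19. It called 0.0354% of all transcripts for CA1 against DG and 0% for CA3 against DG and for CA1 against CA3. Unadjusted, in that order, 4, 3 and 4 member transcripts had a p under 0.05, as did 7.98%, 7.78% and 5.04% of all transcripts. The test of transcript shares by treatment called 0.458% of 6331 genes and 0 members, the lowest p among them being that of Grin2a (unadjusted p = 0.0257, edgeR adjusted p = 0.351).

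Transcript length moved with the treatment difference. Across all genes tested, the median log2 fold change of dissociated over control was 0.13 for the 778 genes with transcripts under 1000 bases and -0.31 for the 555 genes over 8000 bases. Weighted by counts, the transcripts of Grin2b averaged 23876 bases and those of Grin2a 14473 bases, the longest of the members. Their log2 fold changes of -0.89 and -1.05 lay below the lower quartile of the longest genes, which was -0.58. The median length in that class was 9569 bases, shorter than both, so the quartile is not a reference of like length. Grin3a, at 7441 bases, had a value of -0.01, and Grin1, at 4115 bases, one of -0.36, beside a median of -0.17 for genes of 4000 to 8000 bases. In the same length class, Grin2c at 4718 bases had a value of 0.84 and Grin2d at 5378 bases one of -0.37. The part of transcript length in these values was not tested.

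The partners of the receptor were examined by lists, each described by its median log2 fold change of dissociated over control beside the all-gene median of -0.11. No gene was called in any of the 6 lists. The 12 scaffold genes, which anchor the receptor at the synapse, had a median of -0.21, and Dlg3, which encodes SAP102, a value of -0.87 (SE 0.31, edgeR adjusted p = 0.246). The 14 kinases and phosphatases that act on the receptor had a median of -0.36, with Ppp3cb, a calcineurin subunit, at -0.45 (SE 0.18, edgeR adjusted p = 0.299). The 10 genes of receptor trafficking had a median of -0.27, and the 12 of downstream calcium signalling one of -0.18.

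Of 12 genes of glycine and D-serine supply, the coagonists, 10 were tested, with 8 values above 0 and a median of 0.34. Psat1 and Phgdh, enzymes of serine synthesis found mainly in astrocytes, had values of 0.93 (SE 0.24, edgeR adjusted p = 0.0683) and 0.92 (SE 0.28, adjusted p = 0.159). Slc7a10, a D-serine and glycine transporter, had 0.97 (SE 0.38, edgeR adjusted p = 0.293), whereas Srr, the serine racemase that makes D-serine, had -0.51 (SE 0.25, adjusted p = 0.401). Among 7 genes of glutamate transport and recycling, with a median of -0.12, the glutamine synthetase gene Glul had 0.81 (SE 0.21, edgeR unadjusted p = 0.000922, not called). By unadjusted p under 0.05, edgeR counted 1 scaffold gene, 5 kinases and phosphatases, 0 trafficking genes, 4 coagonist genes, 3 transport genes and 0 calcium signalling genes. Of all genes tested, 12.4% passed the same threshold. The 8 astrocyte markers had a median of 0.75 with 0 called, and 8 of 10 oligodendrocyte, 7 of 10 microglial and 4 of 6 oligodendrocyte precursor markers were called higher, with medians of 1.94, 1.72 and 1.44. The medians of the neuronal marker lists lay below 0, with 0 markers called. Unadjusted, 1 of 10 excitatory neuron and 0 of 10 interneuron markers had an edgeR p under 0.05, beside 12.4% of all genes. The 10 excitatory neuron markers had a median of -0.35, with 9 below 0 and 1 above. The 10 interneuron markers had a median of -0.37, with 8 below 0 and 2 above. Within regions their median was 0.35 in CA1, where 8 were above 0, -0.45 in CA3 and -2.70 in DG.

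**Figure D5:**
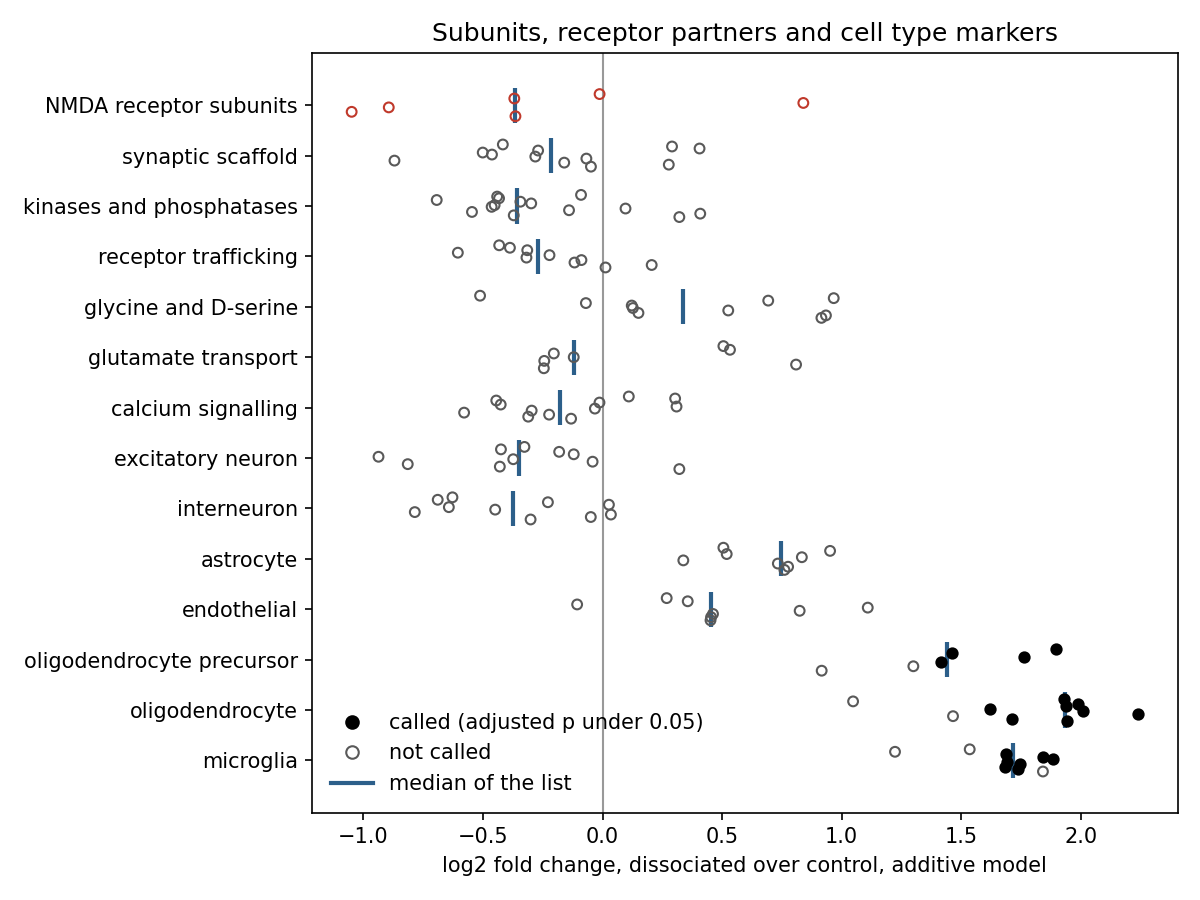
Log2 fold change of dissociated over control (x axis) for the subunit genes, lists of receptor partners and cell type markers (y axis). Each point is 1 gene, filled where called, and the vertical bar is the median of the list. No subunit or partner is filled, and the filled points belong to oligodendrocyte precursor, oligodendrocyte and microglial markers.

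Between regions, several partners were called. Prkca, a protein kinase C gene, was higher in CA1 than DG (log2 fold change 1.41, SE 0.38, edgeR adjusted p = 0.0355). Of the calcium signalling genes, Itpka was higher in CA1 than DG (1.65, SE 0.34, adjusted p = 0.00544), whereas the transcription factor gene Mef2c (-1.86, SE 0.36, adjusted p = 0.00281) and the exchange factor gene Rasgrf2 (-1.73, SE 0.42, adjusted p = 0.0211) were lower by edgeR. Lin7c, which encodes an adaptor of receptor transport, was lower in CA3 than DG (-1.35, SE 0.34, edgeR adjusted p = 0.0384). For CA1 against DG, 3 of 12 calcium signalling genes were called beside 4.06% of all genes, and for CA3 against DG, 1 of 10 trafficking genes beside 1.77%.

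The genes whose log2 CPM most resembled each member over the 14 libraries were ranked by Pearson's r among the 7682 genes averaging 20 CPM or more. The libraries share regions, treatments and depths, so r is a description and no p is given. Grin2a was close to Sorl1 (0.96) and Grm5 (0.95), and Grin2b was closest to Grm5 (0.95), Myt1l (0.95) and Atp2b1 (0.94). Grin1 was closest to Hivep2 (0.95), Adgrb3 (0.95) and Cx3cl1 (0.95). Grin2d was closest to Slc38a7 (0.95), Asic1 (0.95) and Abhd17b (0.94). Its counts were 2 and 0 in CA1 dissociated replicates 2 and 3, and 0 and 1 in DG dissociated replicates 3 and 4. The r values of Grin2d may therefore rest partly on values near the floor, and its mean of 18.5 CPM was under the 20 CPM asked of the other genes. Grin2c was closest to Klf4 (0.89), Sbds (0.86) and Rassf3 (0.84), and Grin3a to Plxnb3 (0.78), Tmeff1 (0.77) and Tenm3 (0.77). Among the members, r was 0.94 between Grin2a and Grin2b, 0.86 between Grin1 and Grin2a, and -0.54 between Grin1 and Grin2c.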

How the data were processed

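The submitters' processing notes name FastQC, cutadapt, kallisto and DESeq2, without versions. Sources used here give neither a genome build nor an annotation for those steps. The deposited estimated counts, TPM values and effective lengths per transcript are kallisto-style output per the file headers. The deposited gene table holds counts that equal the summed estimated counts of a symbol's transcripts, rounded (within 0.5). Columns not mapped to a sample numbered 0.

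For the deposited gene counts, edgeR 4.0.16 under R 4.3.3 was used (TMM scaling, quasi-likelihood test, Benjamini-Hochberg adjustment) after a filter on low counts (filterByExpr, minimum 10 in a library and 15 in total), which kept 13063 genes. Region and treatment effects came from an additive fit with 10 residual degrees of freedom, and effects within regions and the interaction from group means with 8. CPM used TMM-scaled library sizes. Estimated counts were rounded and fitted the same way for 25388 transcripts, and transcript shares were tested for 6331 genes with at least 2 tested transcripts (diffSpliceDGE, Simes). Deposited TPM was summed per gene. limma 3.58.1 and DESeq2 1.42.0 served as alternatives, beside RLE scaling, no filter, a replicate block, TPM on a log2 scale, control libraries alone and leaving out libraries. The alternatives without shallow libraries, without libraries that went against their label, and the tests of Grin1 splice shares were chosen after seeing the data. Wilson intervals (95%) and limits from a count of 0 (3 counts) cover counting error only. The procedures were tested on simulated data.

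All members were named, with their forms by share, and from each partner list the called genes and up to 4 with the smallest p were eligible to be named; some are not reported here. Up to 3 genes per member were named by likeness, on log2 CPM with a prior count of 2. The members and lists were chosen with earlier results of these data known. Sequences were read from GENCODE M21 (GRCm38), which may differ from the authors' annotation.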

Additional observations from a re-analysis of the deposited data

Results flagged for a closer look

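Grin3a reached 58.8 CPM in CA3 control replicate 1, far above the other 6 control libraries, with a gap to the nearest of them of 0.681 of the whole range. The threshold used, Dixon's 95% critical value, is passed by chance in about 1 of 20 groups, and these libraries come from 3 regions. The same library carried more CA1 than CA3 marker expression, and the part of its composition in the Grin3a value was not tested.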

How the results depend on the processing

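Of 888 member values under alternatives, 808 kept their direction and side of the threshold, 30 became calls and 50 changed sign, none of those with a call. Grin1, Grin2a, Grin2b and Grin2c kept their sign for dissociated over control across all regions in every alternative run. Counts of called genes depended strongly on the processing, and the cause was not tested. For dissociated over control, 101 called genes became 160 with RLE scaling, 345 with no filter on low counts, 465 with DESeq2, 420 with limma and quality weights, 55 with limma on log2(TPM + 1), 14 without the 3 libraries under 500000 counts and 33 without the 3 libraries that went against their label. For CA1 against DG, 530 calls became 900 with no filter, 1007 with DESeq2, 1258 with quality weights, 164 on log2(TPM + 1) and 801 without shallow libraries. For CA3 against DG, 231 calls became 616 with no filter, 491 with DESeq2, 447 with quality weights, 17 on log2(TPM + 1), 132 in control libraries alone, 366 without shallow libraries and 82 without libraries against their label. For CA1 against CA3, 15 calls became 127 with no filter, 63 with DESeq2, 44 with quality weights, 0 on log2(TPM + 1), 8 in control libraries alone, 71 without shallow libraries and 112 without libraries against their label. Within CA1, 25 calls became 271 with no filter, 205 with DESeq2, 0 without shallow libraries and 5 without libraries against their label. Within CA3, 0 calls became 29 with no filter and 4 without libraries against their label. Within DG, 21 calls became 261 with no filter, 100 with DESeq2 and 432 without shallow libraries. The interaction had 0 calls, then 128 with no filter, 28 with DESeq2, 5 without shallow libraries and 2 without libraries against their label. RLE scaling moved the median of all genes for treatment to -0.01, against -0.11 with TMM.

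Transcript calls for treatment were 1, then 0 with RLE scaling, 729 with no filter, 2 without shallow libraries and 2 without libraries against their label. For CA1 against DG they were 9, then 425, 51 and 26 under the last 3 of these. For CA3 against DG they were 0, then 2 with RLE, 386 with no filter and 11 without shallow libraries, and for CA1 against CA3 0, then 161 with no filter and 2 without shallow libraries. Genes called for transcript shares by treatment were 29, then 47 with RLE, 54 with no filter, 0 without shallow libraries and 10 without libraries against their label. Those for CA1 against DG were 0, then 2, 1, 3 and 2 under these alternatives, and for CA3 against DG 0, then 1, 1, 4 and 1.

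Deviations of same-numbered samples from their group means correlated at -0.03, 0.01 and 0.02 in CA1, 0.07 in CA3 and -0.16 in DG. The CA1 values gave no sign that replicate numbers pair the samples. In CA3 and DG the 2 libraries of a group deviate as mirror images, so the check cannot show there whether the numbers pair them. With a replicate block within region, the calls were 380 for treatment, 299 in CA1, 22 in CA3, 94 in DG, 39 for interaction, 0 for transcripts and 7 for transcript shares. Under this block Grin2a (-1.40) and Grin2b (-1.17) were called across regions, beside 2.91% of all genes. Both were also called in CA1, at -1.86 and -1.77, beside 2.29%. Grin2d across regions turned to 0.0128 and Grin2b in DG to -0.46. In DG only replicate 3 occurs in both groups, so the blocked DG results rest on that pair. Its dissociated library held 65887 counts.

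Other changes of sign, in log2 units, were as follows. Grin3a for treatment became 0.0708 with RLE scaling, 0.0641 with DESeq2 and 0.108 without libraries against their label. Grin2a in DG became 0.0728 with RLE, 0.0420 with DESeq2 and 0.31 without shallow libraries, where Grin1 in DG became 0.0353. Grin2d for treatment became 0.11 with limma and quality weights and 0.0462 without shallow libraries. Grin3a for CA1 against DG became 0.29 with quality weights, 0.25 in control libraries alone and 0.0129 without shallow libraries. In control libraries alone Grin2c became 0.0491 and Grin2d -0.20 for CA1 against DG, and Grin2c 0.0210 for CA3 against DG. Grin2b for CA3 against DG became -0.26 on log2(TPM + 1), where its DG dissociated values rest partly on short forms. Without libraries against their label Grin2a became -0.39 and Grin2b -0.26 for CA3 against DG, Grin2c 0.0884 for CA1 against DG, and the N1 share for treatment 0.0522 percentage points.

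Leaving out each library in turn gave 38 calls (without CA1 control replicate 2) to 254 (without DG dissociated replicate 4) for treatment, 212 (DG control replicate 3) to 771 (DG control replicate 2) for CA1 against DG, 57 (DG control replicate 3) to 594 (DG control replicate 2) for CA3 against DG, and 7 (CA1 control replicate 2) to 73 (CA1 dissociated replicate 3) for CA1 against CA3. It gave 0 (CA1 control replicate 2) to 111 (CA1 dissociated replicate 1) in CA1, 1 (DG control replicate 2) to 70 (CA1 dissociated replicate 3) in DG and 0 to 5 for interaction. Transcript calls ranged from 0 to 17 for treatment, 2 to 27 for CA1 against DG, 0 to 17 for CA3 against DG and 0 to 2 for CA1 against CA3, and transcript share calls from 5 to 83, 0 to 3, 0 to 2 and 0 to 1 for those comparisons. Treatment values ranged from -1.35 to -0.85 for Grin2a, -0.74 to 0.0342 for Grin2d and -0.15 to 0.24 for Grin3a. For CA1 against DG they ranged from 0.84 to 1.61 for Grin2a, 0.94 to 1.71 for Grin2b, -0.19 to 0.0749 for Grin2c, -0.33 to 0.81 for Grin2d and -0.49 to 0.0587 for Grin3a. Grin2c ranged from -0.38 to 0.13 for CA3 against DG and -0.17 to 0.35 for CA1 against CA3. In CA1, Grin2b ranged from -1.96 to -1.63 and Grin3a from -0.25 to 0.0434. In CA3, Grin2a ranged from -1.51 to 0.19, Grin2b from -1.40 to 0.46, Grin2c from -0.17 to 1.36 and Grin3a from -0.88 to 0.34. In DG, Grin1 ranged from -0.73 to 0.0087, Grin2a from -1.04 to 0.30 and Grin2b from -0.13 to 0.77. In percentage points, the N1 share ranged from -4.50 to 1.00 for treatment and -7.58 to 0.671 for CA1 against DG, C1 from -10.5 to 4.77 for CA1 against DG, and C2' from -0.709 to 4.54 for CA3 against CA1. Depth limits Grin2d, Grin3a and the Grin1 shares most in the 3 shallow libraries.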
